A study of Mus musculus with 8 samples.

Results

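S100 proteins and annexins were compared between resident microglia and invading macrophages sorted from the same ischemic mouse brains. The genes were S100a4, S100a6, S100a8, S100a9, S100a10 and S100a11, and the annexins Anxa1, Anxa2, Anxa4 and Anxa5. Every array probe that measures genes and carries one of these names was taken, which gave 13 probes for 10 genes, of 55681 probes in all. S100a4, Anxa1 and Anxa4 had 2 probes each, and each of the other genes had 1. All 13 probes passed the filter on signal, like 29359 of the 55681 probes: 4 arrays or more had to measure them well above background.

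The samples came from C57BL/6 mice that carried transplanted bone marrow, had 30 min of focal brain ischemia (MCAo, occlusion of the middle cerebral artery) and then 7 days of reperfusion. Resident microglia were the GFP-positive cells of a fluorescence sort and invading macrophages the RFP-positive cells. Both kinds of cell were sorted from each of 4 animals, so that there are 4 samples per group, and replicates 1 to 4 are animals A to D. The labels do not give the promoter or cell type that drives GFP or RFP, the share of blood cells that came from the graft, or the number of cells sorted, and no sham or contralateral sample was analysed here. Messenger RNA was copied and amplified by a global PCR before labelling with Cy3, and 8 single-colour Agilent arrays were hybridised.

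S100 proteins are small calcium-binding proteins of the EF-hand type that work as dimers. Inside cells they bind cytoskeletal and membrane proteins, and some are released and act on receptors of other cells. S100A8 and S100A9 pair as calprotectin, an abundant cytosolic protein of neutrophils and blood monocytes. Annexins bind acidic phospholipids of membranes when calcium rises. A pair of S100A10 proteins binds 2 ANXA2 proteins to form a complex at the plasma membrane that binds plasminogen activators and plasminogen. S100A11 binds ANXA1, and ANXA1 released from myeloid cells signals through formyl peptide receptors and restrains leukocyte entry. ANXA5 binds phosphatidylserine, the lipid that dying cells expose.

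Each probe is a sequence of 60 bases, and 4 of the 13 probes are shown as deposited with the arrays. S100a4 and S100a6 were higher in macrophages, Anxa1 had the largest difference of the 10 genes, and S100a8 did not pass the test. The capitals mark the longest run of bases that any 2 of the 13 probes share, 11 bases in the probes of S100a4 and S100a6. The longest run shared by any other pair was 10 bases.
S100a4: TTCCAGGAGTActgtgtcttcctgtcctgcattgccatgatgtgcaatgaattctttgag
S100a6: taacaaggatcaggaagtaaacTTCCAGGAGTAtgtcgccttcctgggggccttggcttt
S100a8: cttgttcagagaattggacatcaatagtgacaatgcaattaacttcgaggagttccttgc
Anxa1: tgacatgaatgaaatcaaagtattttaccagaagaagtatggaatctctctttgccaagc
In build mm9 these probes lie at chr3:90409734-90409793, chr3:90418160-90418219 and chr3:90473778-90473837 on the plus strand and at chr19:20449722-20449781 on the minus strand. The 6 S100 genes all lie on chromosome 3. The probes of S100a9 (chr3:90496573-90496632, minus strand), S100a11 (chr3:93330022-93330081) and S100a10 (chr3:93368437-93368496) follow those of S100a4, S100a6 and S100a8. Anxa5 is on the same chromosome (chr3:36348065-36348124, minus strand). Anxa2 is at chr9:69339532-69339591. The other probes are those of S100a4 at chr3:90409908-90409967, of Anxa1 at chr19:20447938-20447997 and of Anxa4 at chr6:86686883-86686942 and chr6:86700845-86700904. The exon or UTR that each probe matches was not determined here.

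S100a4, S100a6, S100a10, S100a11, Anxa1 and Anxa2 were higher in the invading macrophages, and none of the 10 genes was lower. By probe, 8 of 13 were called higher and 0 lower, against 2.34% of all tested probes called higher and 4.11% called lower (limma, Benjamini-Hochberg adjusted p under 0.05). By gene, with the probe of highest mean standing for it, 6 of 10 were higher, against 2.28% of 19745 genes higher and 3.94% lower. The same 8 probes were those in which every macrophage array lay above every microglia array, which held for 7.30% of tested probes, and the reverse order for 9.39%. All 13 differences were positive, and their median was 1.80 on the log2 scale, against -0.00112 over all tested probes. The 8 differences ran from 1.31 to 3.02. S100a8, S100a9, Anxa4 and Anxa5 did not pass the test. In these bulk samples, fewer cells of a type and less RNA per cell cannot be told apart.

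**Figure D1:**
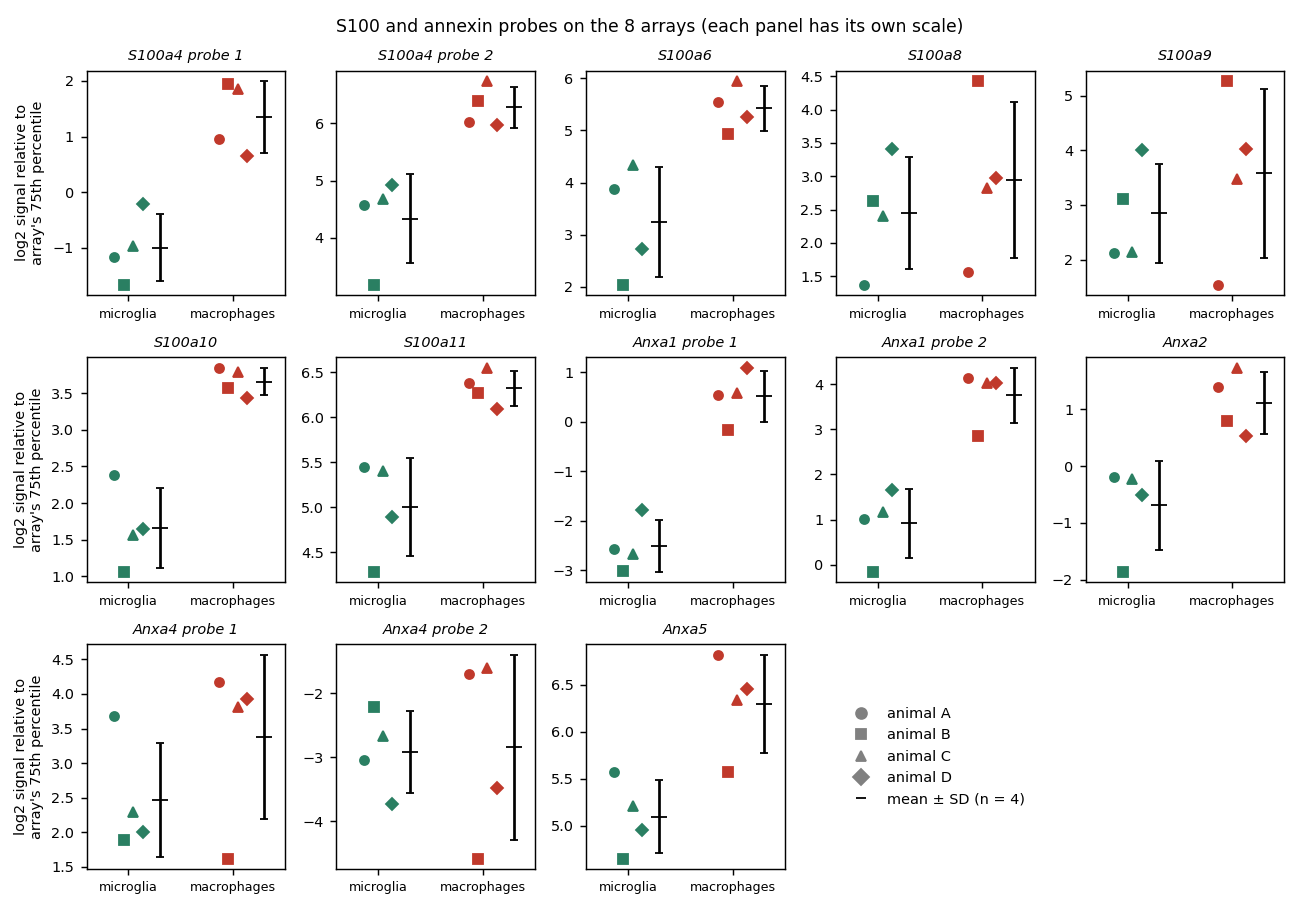
Signal of each of the 13 probes on the 8 arrays, as log2 relative to the 75th percentile of the array, with a panel and a scale of its own for each probe. For S100a4 and Anxa1, probe 2 is the one whose sequence is given, and for Anxa4 it is the one near background. Green points are microglia and red points macrophages, the marker shape gives the animal, and black bars are the mean ± SD (n = 4). In 8 panels the macrophage points all lie above the microglia points, while those of S100a8, S100a9 and Anxa4 overlap and those of Anxa5 touch.

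The count was smaller in fits that took the pairing or the slides into account. With the animal as a block, 4 of the 13 probes and 3 of the 10 genes (S100a6, S100a10 and Anxa1) were called higher, against 1.20% of probes and 1.16% of genes, and none was called lower, against 2.50% of probes. With the slide as a block 5 probes were called, against 1.46% of all probes, and with slide and animal together 2, against 0.834%. The differences of the 8 probes ran from 1.15 to 2.73 on the larger slide (2 microglia and 3 macrophage arrays) and from 1.51 to 3.70 on the smaller one (2 and 1). Their direction within a slide was fixed in advance, because in these probes every macrophage array lay above every microglia array. Within either slide alone no member passed limma's test (at an unadjusted p under 0.05, 9 of 13 were higher within the larger slide, against 4.62% of all probes, and 7 within the smaller, against 4.95%). The smaller slide has 1 macrophage array, assumed there to vary like the microglia arrays. Leaving out 1 array at a time left between 4 and 9 probes called, and 4 probes (S100a10, both of Anxa1 and the one of S100a4 whose sequence is not shown) were called in each of these 8 fits.

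Arrays differed in ways that touch these genes. Microglia replicate 2 was the lowest microglia array for 10 of the 13 probes, against 30.1% of all tested probes. Macrophage replicate 2, from the same animal B, was the lowest macrophage array for 6 of the 13 and the highest for 3, and it was the lowest for 47.4% of all tested probes. Endothelial markers had a summed level (log2) of 10.2 on macrophage replicate 2, 4.99 to 7.57 on the other macrophage arrays and 3.93 to 5.42 on the microglia arrays. Of the 21 markers 20 were well above background on that array, and Cldn3 on none of the 8. Of the 16 tested, 5 were called higher, and 2 with the animal as a block. The brightest, Ly6c1, measured 3.11 ± 1.99 in microglia and 6.29 ± 1.64 in macrophages (SD, n = 4, limma, adjusted p = 0.122). On macrophage replicates 1 and 3 it measured 6.52 and 6.83, a large part of the summed 6.96 and 7.57. On replicate 2 it measured 7.84. Without macrophage replicate 2, 9 member probes and 7 of the 10 genes were called, against 7.14% of all probes and 7.41% of genes. The 8 differences then ran from 1.33 to 3.25, against 1.31 to 3.02 over all arrays.

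The labelled cell types were checked against their defining markers. The summed level of 13 microglia markers ran from 10.05 to 10.38 in microglia and from 7.73 to 9.03 in macrophages. P2ry12, an ADP receptor of microglia, differed by -3.21 (log2, macrophages minus microglia). Sall1, which encodes a microglial transcription factor, was well above background on 4 of 4 microglia arrays and 1 of 4 macrophage arrays. Its mean was at least 197-fold lower in macrophages (a bound taken at the lowest signal well above background on each array). The interval of its fitted log2 difference was -9.68 to -7.32. Here and below, such a bound on the difference of the means covers background only, not the spread between arrays. It is not a confidence limit, and the interval of the fitted difference can reach closer to no difference. The summed level of 12 monocyte markers ran from 9.89 to 10.2 in microglia and from 9.70 to 10.5 in macrophages, and overlapped. Its brightest member, Ms4a4c, measured 9.91 ± 0.17 and 9.77 ± 0.37 (SD, n = 4) and was not called. The medians of the list did not overlap, at -0.50 to 0.57 in microglia and 1.47 to 2.89 in macrophages, and Ccr2, the receptor by which monocytes leave the marrow, differed by 2.47 (limma, adjusted p = 0.00096).

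Anxa1 had the largest difference of the 10 genes. Its probe at the higher coordinates, shown above, measured 1.01, -0.15, 1.17 and 1.64 in microglia replicates 1 to 4 and 4.13, 2.84, 4.02 and 4.01 in macrophage replicates 1 to 4 (log2 of the signal over the 75th percentile of its array, as for all levels here). The groups lay far apart, and the animal B array was the lowest in both. The means were 0.92 ± 0.76 and 3.75 ± 0.61 (SD, n = 4), a difference of 2.83 ± 0.45 (SE), or 7.12-fold (limma, adjusted p = 0.00806). The other probe of Anxa1 measured -2.58, -3.01, -2.67 and -1.78 in microglia and 0.54, -0.16, 0.58 and 1.09 in macrophages. It gave 8.12-fold (3.02 ± 0.36, SE; adjusted p = 0.00188). Within the 4 animals the difference was 2.85 to 3.25 for this probe and 2.37 to 3.12 for the one shown, so that the probes gave like differences in every animal. Both were called with the animal as a block (adjusted p = 0.00573 and 0.00834).

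S100a10, which encodes the plasma membrane partner of ANXA2, measured 2.38, 1.06, 1.56 and 1.64 in microglia and 3.85, 3.58, 3.79 and 3.43 in macrophages. The lowest macrophage array stood 1.06 above the highest microglia array, and the macrophage arrays were close together. The means were 1.66 ± 0.54 and 3.66 ± 0.19 (SD, n = 4), a 4.0-fold difference (2.0 ± 0.31, SE; limma, adjusted p = 0.00691, blocked by animal 0.0287). The differences in animals A to D were 1.47, 2.52, 2.22 and 1.79.

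Anxa2 measured -0.19, -1.86, -0.22 and -0.50 in microglia and 1.39, 0.79, 1.73 and 0.53 in macrophages. Microglia replicates 1, 3 and 4 lay close together, with replicate 2 below them, and no array crossed between the groups. The means were -0.69 ± 0.79 and 1.11 ± 0.55 (SD, n = 4), a 3.49-fold difference (1.80 ± 0.44, SE). This was the called probe nearest the threshold (limma, adjusted p = 0.0487). Blocking by animal gave an adjusted p of 0.0558, and blocking by slide 0.0973. Leaving out any 1 array other than macrophage replicate 2 also ended the call (adjusted p = 0.0538 to 0.116), while without that array it was 0.0412.

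S100a11, whose protein binds ANXA1, measured 5.44, 4.28, 5.41 and 4.89 in microglia and 6.38, 6.26, 6.55 and 6.09 in macrophages. The macrophage arrays were again close together, and microglia replicate 2 was the lowest of the 8. The means were 5.01 ± 0.54 and 6.32 ± 0.19 (SD, n = 4), or 2.49-fold (1.31 ± 0.31, SE; limma, adjusted p = 0.0401). The call was lost with the animal as a block (adjusted p = 0.0731), with the slide as a block (adjusted p = 0.0852) and without any 1 array other than microglia replicate 1 or macrophage replicate 2 (adjusted p up to 0.107).

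S100a4, a binder of non-muscle myosin that is found in motile cells, was measured by both of its probes. The first, at chr3:90409908, measured -1.17, -1.66, -0.96 and -0.21 in microglia and 0.96, 1.95, 1.86 and 0.64 in macrophages. The second, shown above, measured 4.58, 3.18, 4.67 and 4.92 against 6.02, 6.39, 6.74 and 5.97. Neither probe had overlapping groups, and the difference was largest in animal B with both. They gave 5.10-fold (2.35 ± 0.42, SE) and 3.85-fold (1.94 ± 0.41, SE) higher signal in macrophages (limma, adjusted p = 0.0129 and 0.0264). Neither passed once blocked by animal (adjusted p = 0.0710 and 0.0748). The second also lost its call without microglia replicate 1 or 3 or macrophage replicate 1 or 3 (adjusted p up to 0.0708).

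S100a6, also called calcyclin, measured 3.88, 2.04, 4.34 and 2.73 in microglia and 5.55, 4.93, 5.95 and 5.25 in macrophages. The microglia arrays were more widely spread than the macrophage arrays, with replicates 2 and 4 low, and the groups did not overlap. The means were 3.25 ± 1.05 and 5.42 ± 0.43 (SD, n = 4), or 4.50-fold (2.17 ± 0.51, SE; limma, adjusted p = 0.0413). S100a6 kept its call with the animal as a block (adjusted p = 0.0323) but not with the slide as a block (adjusted p = 0.0867). Of the 8 fits without 1 array, it was called only in those without microglia replicate 3 or macrophage replicate 2 (adjusted p up to 0.113).

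**Figure D2:**
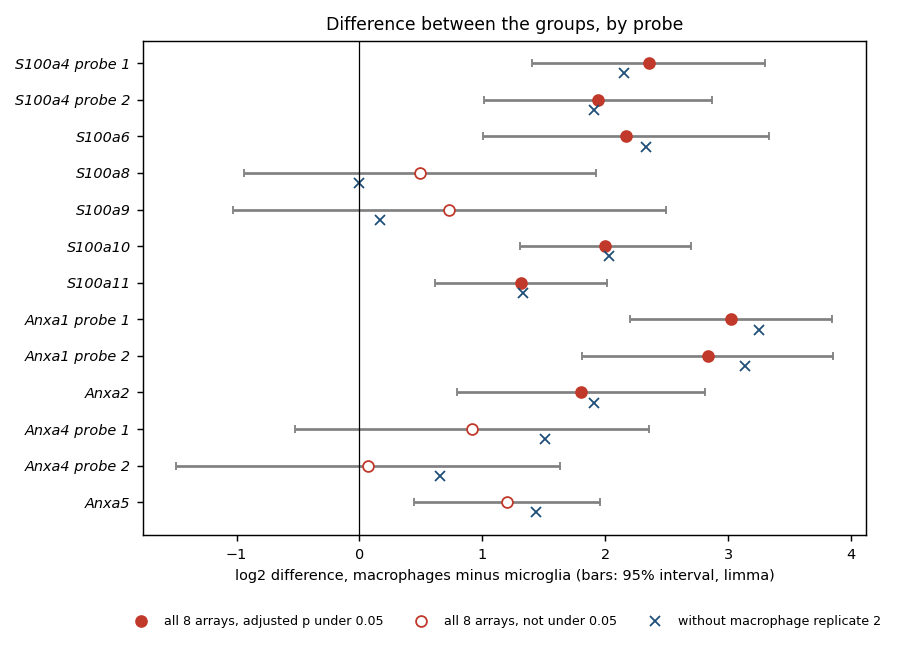
Difference between the groups for each probe (log2, macrophages minus microglia); circles with bars are the limma estimate over 8 arrays with its 95% interval, filled where the adjusted p was under 0.05, and crosses are the estimate without macrophage replicate 2. The 8 filled circles lie between 1.31 and 3.02, the intervals of S100a8, S100a9 and both Anxa4 probes include 0, and the crosses of S100a8 and S100a9 lie at -0.0015 and 0.17.

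S100a8 and S100a9, the calprotectin subunits, did not separate the groups. S100a8 measured 1.37, 2.63, 2.41 and 3.40 in microglia and 1.57, 4.43, 2.82 and 2.97 in macrophages. S100a9 measured 2.13, 3.11, 2.14 and 4.01 in microglia and 1.54, 5.27, 3.47 and 4.03 in macrophages. For both genes, macrophage replicate 2 was the highest of the 8 arrays, and macrophage replicate 1 lay within the range of microglia or below it. The differences were 0.49 (95% interval -0.94 to 1.93; limma, adjusted p = 0.674) and 0.73 (-1.03 to 2.49; adjusted p = 0.606), so that a difference of the size seen for S100a11 lies inside both intervals. In animals A to D, S100a8 differed by 0.20, 1.80, 0.41 and -0.44 and S100a9 by -0.59, 2.16, 1.33 and 0.02. Without macrophage replicate 2 the differences were -0.0015 and 0.17.

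Markers of neutrophils, the cells richest in calprotectin, did not all follow these genes across the macrophage arrays. Of the 22 markers on the array 13 passed the filter, and none was called by limma (3 higher at an unadjusted p under 0.05, 2 called with the animal as a block, 1 without macrophage replicate 2). Their differences ran from -0.47 to 2.72, with a median of 0.90. Among the macrophage arrays, 8 of the 13 were highest on replicate 2 (23.4% of all tested probes) and 7 lowest on replicate 1 (16.7% of all tested probes). The other way round, Mmp8, Csf3r and Chi3l3 were lowest on replicate 2, and 2 markers were highest on replicate 1. Mmp8 and Chi3l3 were the 2 called with the animal as a block. Chi3l3 was also on the monocyte list, under its newer name Chil3, by which the array has no probe. The summed level of the list was 6.98 to 7.27 in microglia and 7.43 to 7.79 in macrophages. Csf3r, its brightest gene, measured 6.91 ± 0.07 and 6.59 ± 0.07 (SD, n = 4) and was not called (limma, adjusted p = 0.361). It lay close to that sum in microglia and further below it in macrophages, where other markers added more. The median of the list was -4.20 to -1.72 in microglia, -0.47 on macrophage replicate 2 and -3.27 to -1.15 on the other macrophage arrays. Ly6g, the surface marker of mouse neutrophils, measured 2.23, -0.98, 1.65 and 0.29 in microglia and 3.49, 5.12, 3.80 and 1.67 in macrophages (difference 2.72 ± 0.86, SE; adjusted p = 0.102). Elane, Fcnb, Mpo and Stfa1 were well above background on none of the 8 arrays. The part of neutrophil RNA in the S100a8 and S100a9 signals was not tested.

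Anxa5 measured 5.57, 4.65, 5.21 and 4.96 in microglia and 6.82, 5.57, 6.33 and 6.46 in macrophages. Macrophage replicate 2 lay just under microglia replicate 1, and the other macrophage arrays lay above all microglia arrays. Macrophages were higher in 4 of 4 animals, a direction that 16.9% of tested probes shared. The means were 5.10 ± 0.39 and 6.29 ± 0.53 (SD, n = 4), or 2.29-fold, which missed the threshold (1.20 ± 0.33, SE; limma, adjusted p = 0.0712). Without macrophage replicate 2 the difference was 1.44 (adjusted p = 0.0163).

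Anxa4, an annexin known mainly from epithelia, had probes that gave no clear difference. The brighter probe measured 3.68, 1.88, 2.29 and 2.01 in microglia and 4.17, 1.62, 3.82 and 3.93 in macrophages, so that replicate 2 was the lowest macrophage array and microglia replicate 1 lay among the macrophages. Its difference was 0.92 (95% interval -0.52 to 2.36; limma, adjusted p = 0.421), and 1.51 without macrophage replicate 2 (adjusted p = 0.0634). The second probe was near background, well above it on 3 of 4 microglia and 2 of 4 macrophage arrays. It measured -3.04, -2.22, -2.67 and -3.73 against -1.70, -4.58, -1.60 and -3.48, a difference of 0.07 ± 0.69 (SE; adjusted p = 0.962). The array annotation ties that probe to an Ensembl transcript and the brighter one to the RefSeq transcript of Anxa4.

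The rest of both families was read by gene, with the probe of highest mean. Of 27 other S100, S100-fused and annexin genes 25 were on the array and 11 were bright enough to test. Anxa11 was higher, Anxa3 was lower and 9 were not called, with a median difference of 0.57 against 0.02 over all tested genes. Anxa11, an annexin of RNA granules and lysosomes, measured 1.98 ± 0.28 and 3.16 ± 0.18 (SD, n = 4), or 2.26-fold (1.18 ± 0.23, SE; limma, adjusted p = 0.0213). This call was lost with the animal as a block (adjusted p = 0.0851) and without microglia replicate 2 or 3 or macrophage replicate 1 or 3 (adjusted p up to 0.0693). A second Anxa11 probe differed by 2.42 and kept its call with the block (adjusted p = 0.00711 and 0.0298).

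Anxa3 measured 5.30, 5.47, 5.30 and 5.35 in microglia and 4.35, 4.60, 4.30 and 4.66 in macrophages, with no overlap, and was the only one of these 11 genes called lower. It fell by 0.88 (SE 0.21; limma, adjusted p = 0.0420), and was lower in macrophages in 4 of 4 animals. The call did not hold with the animal as a block (adjusted p = 0.107), with median centring (adjusted p = 0.129), or without any 1 array other than macrophage replicate 2 (adjusted p up to 0.122). The 5 other S100 genes tested had no call with limma, and 3 were higher at an unadjusted p under 0.05. S100a1 differed by 0.83 (adjusted p = 0.171). S100b, abundant in astrocytes, was well above background on 1 of 4 microglia arrays. Its mean was at least 4.23-fold higher in macrophages, which missed the threshold (adjusted p = 0.0827, interval of the fitted log2 difference 0.87 to 4.36). S100a16 measured 2.33 on macrophage replicate 2 and -3.56 to -1.92 on the other macrophage arrays, and was well above background on 1 of 4 microglia and 3 of 4 macrophage arrays. Its mean was at least 4.12-fold higher in macrophages, which missed the threshold (adjusted p = 0.141, interval of the fitted log2 difference 0.59 to 6.18). Its fitted difference moved from 3.38 to 2.14 without macrophage replicate 2. Astrocyte markers differed among themselves, with a median difference of 1.04 over the 7 tested. The mean of Gfap, the intermediate filament of astrocytes, was 6.67-fold higher in macrophages (interval of the fitted log2 difference 1.63 to 3.85). This is the fitted value, which the bound for background left unchanged. Gfap was well above background on 3 of 4 microglia arrays. Its adjusted p was 0.0135, blocked by animal 0.0392 and without microglia replicate 2 0.0505. The summed level of the list was 3.77 to 3.92 in microglia and 1.47 to 2.86 in macrophages. Its brightest gene, Slc1a3, a glutamate transporter, measured 3.64 ± 0.11 (SD, n = 4) in microglia and made up most of that sum there. The mean of Slc1a3 was at least 93.9-fold lower in macrophages, with 2 of 4 arrays well above background (limma, adjusted p = 9.2e-05). The interval of its fitted log2 difference was -7.61 to -5.58. Smooth muscle and pericyte markers summed to 1.10 to 1.503 in microglia, 3.38 on macrophage replicate 2 and 1.23 to 1.56 on the other macrophage arrays. On that array 9 of the 10 were well above background, against 2 to 4 on the other macrophage arrays, and Kcnj8 was so nowhere. Their brightest gene, Tagln, differed by -0.01. Fibroblast markers ran from -1.08 to 0.88 and from 1.34 to 2.35, with Lum above background nowhere. Their brightest gene, Dcn, differed by 2.52 (adjusted p = 0.0324, blocked by animal 0.102). The part of such cells in the annexin and S100 differences was not tested.

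**Figure D3:**
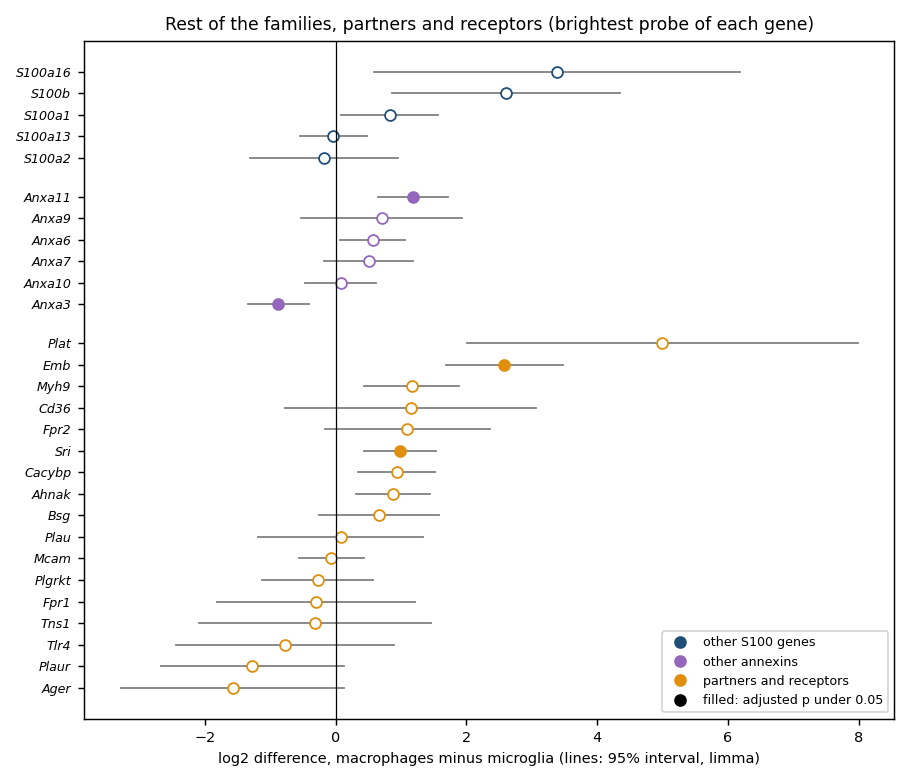
Difference between the groups (log2, macrophages minus microglia, limma estimate with its 95% interval) for the other S100 genes, the other annexins and the partners and receptors, by the brightest probe of each gene; filled circles had an adjusted p under 0.05. Of 28 genes, Anxa11, Emb and Sri were higher and Anxa3 was lower, and the widest intervals are those of Plat and S100a16.

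Among 24 known partners and receptors of these proteins, 21 were on the array, 17 were tested, and 2 were called, both higher. Emb, which encodes embigin, a surface protein that binds S100A8 and S100A9, measured -0.26, -1.88, -0.72 and -0.24 in microglia and 2.08, 1.47, 2.05 and 1.64 in macrophages. The groups were well apart, with a 5.99-fold difference (2.58 ± 0.39, SE; limma, adjusted p = 0.00664, blocked by animal 0.0217). Sri, which encodes sorcin, a calcium-binding partner of annexins, was 1.98-fold higher (0.98 ± 0.24, SE; adjusted p = 0.0486). Sri was not called with the animal as a block (adjusted p = 0.0932), and without 1 array it was called only where microglia replicate 1 or macrophage replicate 2 was left out (adjusted p up to 0.139). The other 15 ran from -1.58 to 4.99 (adjusted p = 0.0604 to 0.949), and the median of the 17 was 0.66.

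Emb apart, the receptors of released S100 proteins and of ANXA1 named here were not called. Ager, the receptor for advanced glycation end products, was well above background on 4 of 4 microglia and 2 of 4 macrophage arrays. Its mean was at least 2.25-fold lower in macrophages, and the interval of its fitted difference, -3.29 to 0.14, did not exclude either sign. The difference missed the threshold (limma, adjusted p = 0.247) but passed it without macrophage replicate 2 (adjusted p = 0.0261). Tlr4, at which calprotectin acts, differed by -0.77 (adjusted p = 0.564). This sign rested on macrophage replicate 2: the differences in animals A to D were 0.06, -3.44, 0.08 and 0.22, and without that array the difference was 0.0531. The formyl peptide receptor genes Fpr1 and Fpr2 differed by -0.30 and 1.10 (adjusted p = 0.822 and 0.272). Plaur, the urokinase receptor, was well above background on 3 of 4 microglia and 1 of 4 macrophage arrays. Its mean was at least 2.10-fold lower in macrophages, which missed the threshold (adjusted p = 0.253). The interval of its fitted difference, -2.67 to 0.13, did not exclude either sign. That difference moved from -1.27 to -0.78 without macrophage replicate 2.

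Plat, the tissue plasminogen activator that the S100A10-ANXA2 complex binds, measured -4.63, -3.78, -2.17 and -4.57 in microglia, 1 of these arrays being well above background. It measured -0.72, 5.34, 1.10 and -0.90 in macrophages, where replicate 2 stood far above the rest. It was at least 22.7-fold higher in macrophages, which missed the threshold (adjusted p = 0.0604). The fitted difference, taken in part against background, was 4.99 over all arrays and 3.62 without macrophage replicate 2 (adjusted p = 0.0190). Ahnak, a large scaffold protein that binds the same complex, depended on the probe. Its brightest probe differed by 0.88 (adjusted p = 0.0730) and the other tested probes by 3.34 and 3.64 (adjusted p = 0.00806 and 0.00372). Blocked by animal, these 2 probes had adjusted p = 0.0514 and 0.0308.

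The members did not follow a common course over the 8 arrays. Likeness was taken as the mean absolute difference between probes after each was centred on its own mean over the 8 arrays, and ranked among 16917 probes, 1 for each gene, as a description without a test. The probes nearest to S100a10 were those of Vim (intermediate filament vimentin, 0.126), Iqgap1 (a scaffold of the actin cytoskeleton, 0.158) and Tagln2 (transgelin 2, an actin-binding protein, 0.191). These were higher in macrophages too, by 1.91, 2.02 and 1.64 (limma, adjusted p = 0.0114, 0.0139 and 0.0143). S100a11 ranked 59 and Anxa2 60, both at 0.343. The probes nearest to Anxa2 were those of Ms4a4b (0.205), Gm8369 (0.235) and Gm5150 (0.285). They were followed by S100a4 at rank 4 (0.288), S100a11 at rank 5 (0.291) and S100a6 at rank 6 (0.293), while S100a10 ranked 30. The centred values share the array scaling and the group difference, which sets much of this order.

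For S100a8 the nearest probes were those of Lgals4 (0.214), Gm12758 (0.241) and Tom1l2 (0.270), none of them called (limma, adjusted p = 0.513, 0.575 and 0.749). Lgals4 and Gm12758 were dim, at -5.48 to -1.75 and -5.36 to -1.59 over the 8 arrays, so their likeness is in part one of low signals. S100a9, the partner of S100a8, ranked 7 (0.339). S100a4, a neighbour on chromosome 3, ranked 11988 (1.04), and the other members ranked between 10779 and 15601. By this measure S100a9 was the member nearest to S100a8. The measure holds the group difference, which was small for both, so this order in part restates the calls. Neighbours of S100a9 were not ranked.

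**Figure D4:**
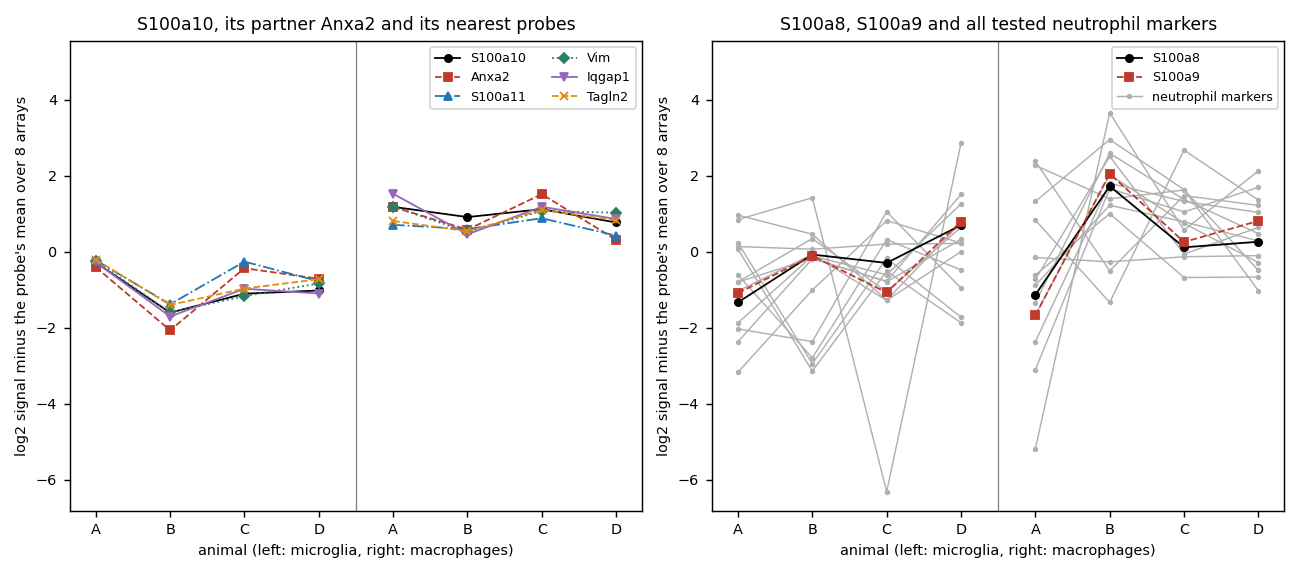
Signal on each array minus the probe's mean over 8 arrays (log2) for animals A to D, microglia left and macrophages right of the vertical line in each panel; the other lines only join the points of a probe. On the left S100a10, Anxa2, S100a11, Vim, Iqgap1 and Tagln2 are below 0 on every microglia array and above 0 on every macrophage array; on the right S100a8 and S100a9 are drawn over all 13 tested neutrophil markers (grey), of which 8 have their highest value on the macrophage array of animal B, as S100a8 and S100a9 do, and 3 their lowest macrophage value there.

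Promoter sequences from RefSeq (build GRCm38.p6, 250 bases before the start of the gene) were matched for 9 of the 10 genes, with 10 windows. They are shown for S100a11 and Anxa2, which were both higher in macrophages, and for S100a8, which was not called. In S100a11 and Anxa2 the capitals mark TGANTCA, the site of AP-1, and TATAAA, the TATA box. In S100a8 they mark GAGGAA, a core of PU.1 sites, here as TTCCTC on the other strand, and TATAAA.
S100a11, chr3:93520246-93520495, plus strand: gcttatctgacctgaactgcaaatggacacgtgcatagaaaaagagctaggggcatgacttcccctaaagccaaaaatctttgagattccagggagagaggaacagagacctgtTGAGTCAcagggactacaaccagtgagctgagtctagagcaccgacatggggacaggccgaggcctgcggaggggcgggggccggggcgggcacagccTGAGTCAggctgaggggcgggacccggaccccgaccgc
Anxa2, chr9:69453433-69453682, plus strand: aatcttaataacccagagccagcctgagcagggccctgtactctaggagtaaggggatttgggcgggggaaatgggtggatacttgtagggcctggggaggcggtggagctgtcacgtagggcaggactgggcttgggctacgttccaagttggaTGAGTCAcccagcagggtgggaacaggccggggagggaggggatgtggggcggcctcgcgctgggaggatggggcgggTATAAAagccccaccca
S100a8, chr3:90668821-90669070, plus strand: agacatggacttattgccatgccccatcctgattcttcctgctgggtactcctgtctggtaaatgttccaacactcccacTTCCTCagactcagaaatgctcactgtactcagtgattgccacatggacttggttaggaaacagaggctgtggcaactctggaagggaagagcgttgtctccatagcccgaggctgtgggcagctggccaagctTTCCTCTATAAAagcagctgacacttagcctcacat
The S100a11 window held TGANTCA 136 and 38 bases before the start, and the Anxa2 window held it 95 bases before. It was found in no other member's window and in 6.75% of 32851 windows of this length. TATAAA was found in the windows of S100a4, S100a8, Anxa1 and Anxa2 and in 12.4% of all windows. In S100a8 it lay 30 bases before the start, directly after the second of its GAGGAA matches. GAGGAA was found in S100a8, S100a11 and Anxa1 and in 23.3% of all windows, and the C/EBP pattern TTGCNNAA in S100a9, Anxa1 and Anxa4 and in 9.56%. The GC box GGGCGG was found in S100a9, S100a11 and Anxa2 and in 32.7% of all windows. Both strands were searched. A match describes the letters in these windows only, and no binding was measured here.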

How the data were processed

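RNA of 4 microglia and 4 macrophage samples was amplified and hybridised to single-colour arrays, per the labels' protocols. The deposited processed signal of each spot is an intensity, background-subtracted and detrended by Agilent Feature Extraction 10.7.3.1, per the file headers. A deposited log2 table of the same arrays (column medians 4.604 to 4.606, correlation with its own array 0.996 to 1.000) was used as an alternative; its normalization is not given in the sources used here. Amplification by PCR can change transcript proportions.

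Each array has 62976 spots, of which 3671 controls were left out. Outlier spots were dropped, replicate spots averaged, and log2 signals taken relative to each array's 75th percentile. The arrays measured 45.7% to 57.1% of probes well above background, and none of the gene probes was saturated. A probe was tested if well above background on at least 4 of 8 arrays. Groups were compared per probe in R 4.3.3 by limma 3.58.1 (lmFit, then eBayes; two-sided), p-values were adjusted over 29359 probes after Benjamini and Hochberg, and the threshold was 0.05; p-values measure the spread between 4 animals per group. Coordinates are those of the array files (mm9), and names are those of the array design.

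Samples are paired by animal in the labels. The deviations from the group means correlated at 0.0422, 0.0983, 0.0697 and -0.0185 in animals A to D, over 29322 probes. By this correlation the macrophage array most like a microglia array was that of its own animal in B and C, but not in A and D. The reported fit has no animal block, and the blocked value stands beside each call it ends. The fit was tested on simulated data with the spread of each probe. Of 29359 probes, 67, 67 and 66 were changed by 1, 2 and 3 (log2). The fit called 1.49%, 47.8% and 66.7% of these, with 4 false calls. The adjustment is stricter when fewer probes change, and the measured arrays gave more calls, 688 higher and 1206 lower. The share of changes of 1 that the fit missed on the measured arrays was not tested.

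The members and all lists were chosen with earlier results of these data known. The genes named are the 10 members; called genes of the other family and partner lists, with Ager, Tlr4, Fpr1, Fpr2, Ahnak, Plat and Plaur; the brightest gene of each marker list, with P2ry12, Sall1, Ccr2 and Ly6g; and the 3 nearest probes to S100a8, S100a10 and Anxa2. A gene that this rule takes is not reported here. S100a1, S100a16, S100b, Cldn3, Gfap, Mmp8, Chi3l3 and the markers never above background were named after their values were seen, as were the second probes of Anxa11 and Ahnak. Alternatives were other background corrections, scalings, filters and tests, the slide or animal as a block, and leaving out each array.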

Additional observations from a re-analysis of the deposited data

Results flagged for a closer look

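Of 26 groups of 4 arrays (13 probes in microglia and in macrophages), 2 had an array far from the others, both times macrophage replicate 2, and chance alone flags about 1 in 20 such groups. For the Anxa1 probe shown, macrophage replicate 2 measured 2.84 against 4.01 to 4.13 on the other macrophage arrays, a gap of 0.911 of the whole range. For the brighter Anxa4 probe it measured 1.62 against 3.82 to 4.17, a gap of 0.862 of the range. Anxa1 stayed called without that array, at a difference of 3.14.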

How the results depend on the processing

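The number of arrays limits what can be seen, and the calls nearest the threshold, S100a6, S100a11 and Anxa2, depended on the settings. The 13 member probes gave 191 values under 15 other settings, of which 142 kept direction and side of the threshold, 40 lost the call, 5 gained it and 4 changed sign; leaving out 1 array gave 104, with 76, 23, 1 and 4. The 16 other named family and partner genes gave 238 (203, 24, 7 and 4) and 128 (106, 17, 2 and 3). The causes were not tested.

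Member probes called higher numbered 8, against 4 with the animal as replicate block, 5 with the slide as a block, 2 with both, 0 within the larger and 0 within the smaller slide, and 5 without the filter. Member genes numbered 6, against 3, 3, 1, 0, 0 and 3 under the same settings. Over all probes 688 were higher, against 352, 429, 245, 17, 16 and 406, and 1064 with median centring, 1117 with normexp and the 75th percentile and 1057 with a robust trended eBayes. The 1206 lower probes became 735 with the animal block, 598 with both blocks, and 187 and 74 within the slides. Higher calls were 36.3% of all calls, against 53.2% with median centring, which shifts the median of all probes by 0.21, 25.4% with the percentile over probes detected on all arrays (shift -0.16), 51.1% without macrophage replicate 2, and 8.33% and 17.8% within the slides. The smaller slide shifts the median by 0.11.

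Anxa11, the 1 other family gene called higher, gave a count of 0 with the animal block, both blocks, within either slide and without the filter. Anxa3, the 1 called lower, gave 0 under those settings, with the slide block and with median centring. Partners called higher numbered 2, against 1 with the animal or slide block, the percentile over detected probes, quantile normalization, the authors' deposited table or no filter, 0 within either slide, 4 with median centring or normexp and the 75th percentile, and 6 with a robust trended eBayes; 1 partner was lower with both blocks. Without 1 array the counts ran from 4 to 9 member probes, 3 to 7 member genes, 305 to 2095 probes higher and 676 to 2005 lower, 0 to 1 other family genes higher and 0 to 1 lower, and 1 to 5 partners higher and 0 to 1 lower. With the animal as replicate block no member gained a call.

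Values that changed sign belonged to uncalled probes. S100a8 became -0.43 within the smaller slide, and ran from -0.0015 (without macrophage replicate 2) to 0.95 over the fits without 1 array, and S100a9 -1.08 within the smaller slide. The dim Anxa4 probe became -0.0222 within the larger slide and -0.0862 with the percentile over detected probes, and ran from -0.34 to 0.65 over the fits without 1 array, negative without microglia replicate 4 or macrophage replicate 1 or 3. Fpr1 became 0.80 within the larger slide and ran from -0.66 to 0.30 without 1 array, positive without microglia or macrophage replicate 1. Fpr2 became -0.17 within the smaller slide. Tlr4 became 0.12 with both blocks and 0.0533 within the smaller slide, and ran from -1.11 to 0.0531 without 1 array, positive without macrophage replicate 2. S100a6, S100a11 and Anxa2 narrowly lost their calls with quantile normalization (adjusted p = 0.0542, 0.0676 and 0.0505) and with the authors' deposited table, and S100a11 and Anxa2 also with the percentile over detected probes. Anxa5 was called with 5 settings (normexp with either scaling, quantile normalization, the authors' deposited table and a robust trended eBayes).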
